A study of Mus musculus with 8 samples.

Results

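The stathmins and the growth cone membrane proteins are 8 mouse genes, Stmn1, Stmn2, Stmn3, Stmn4, Gap43, Basp1, Marcks and Marcksl1. They were chosen by name, with earlier results of these data known, and their probes were found through RefSeq accessions. They were read by 10 of the 55681 non-control probes of a one-colour Agilent microarray, and all 10 probes were well above background on all 8 arrays. Stmn1 and Stmn4 had 2 probes each and the other genes 1 each. The cells were N18TG2, a mouse neuroblastoma line, and the 2/4 clone, a derivative that expresses ChAT, the acetylcholine-synthesising enzyme choline acetyltransferase. The 4 groups held 2 arrays each: the clone with all-trans retinoic acid (RA) at 1 µM, the untreated clone, the parental line with RA at 1 µM and the untreated parental line. Cells grew in 10% serum, RA was added in medium containing 1% serum, and the clone, a single clonal line, was kept under G418 at 200 µg/mL. The labels do not give the medium of the untreated arrays, nor whether paired arrays stand for separate cultures, so p-values may measure technical spread only.

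Stathmins bind tubulin dimers and promote the disassembly of microtubules, and phosphorylation switches this activity off. Stmn1 encodes the cytosolic form, found in most dividing cells, whereas Stmn2 (SCG10), Stmn3 (SCLIP) and Stmn4 (RB3) encode neuronal forms that palmitoylation anchors to membranes and vesicles of the growth cone. Gap43, Basp1 (CAP-23, NAP-22), Marcks and Marcksl1 encode acidic proteins of the inner face of the plasma membrane, substrates of protein kinase C that bind calmodulin or phosphoinositides and act on the actin cortex. GAP-43 and SCG10 are classical markers of outgrowing neurites.

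RefSeq promoter windows of the 8 genes were looked up in build GRCm38.p6 and 3 genes had an entry. The 250 bases before the annotated start are printed for all 3 genes with an entry, which were not picked by their test results. Of these, Stmn3 and Basp1 differed between the lines with and without RA, whereas Marcksl1 passed no test. Capitals mark matches on either strand to the GC box GGGCGG or the E-box CANNTG, where N is any base.
Stmn3 (chr2:181314501-181314750, - strand): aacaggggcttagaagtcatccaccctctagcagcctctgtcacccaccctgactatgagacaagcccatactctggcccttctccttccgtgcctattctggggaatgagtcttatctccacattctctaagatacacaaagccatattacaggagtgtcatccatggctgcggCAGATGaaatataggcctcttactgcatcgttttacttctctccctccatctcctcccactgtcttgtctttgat
Basp1 (chr15:25413765-25414014, - strand): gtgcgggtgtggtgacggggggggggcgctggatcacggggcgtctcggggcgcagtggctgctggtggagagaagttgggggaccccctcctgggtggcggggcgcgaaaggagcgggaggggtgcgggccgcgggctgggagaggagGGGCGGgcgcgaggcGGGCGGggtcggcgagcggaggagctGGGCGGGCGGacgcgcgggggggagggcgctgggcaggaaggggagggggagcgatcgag
Marcksl1 (chr4:129513331-129513580, + strand): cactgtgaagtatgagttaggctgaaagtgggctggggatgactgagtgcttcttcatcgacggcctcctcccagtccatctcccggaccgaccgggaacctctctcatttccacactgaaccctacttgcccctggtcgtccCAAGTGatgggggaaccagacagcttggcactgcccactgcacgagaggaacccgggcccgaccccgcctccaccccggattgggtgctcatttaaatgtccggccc
The Basp1 window held 4 GC boxes, 2 of them overlapping, and the Stmn3 and Marcksl1 windows held 0 GC boxes and 1 E-box each. Of 32851 windows of the same length, 32.7% held a GC box and 66.2% an E-box. The TATA box TATAAA, present in 12.4% of windows, and the retinoid receptor motif AGGTCA, present in 14.0%, matched none of these 3 windows. G and C made up 78.8% of the Basp1 window, 60.4% of the Marcksl1 window and 48.8% of the Stmn3 window, against a median of 52.4%. These are matches of letters and not measured binding.

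Levels are log2 intensities scaled so that 0 is the 75th percentile of each array, and a difference of 1 is a 2-fold change. The 75th percentile of the intensity ran from 264.8 to 1264. The array clone RA replicate 1 had 71.7% of probes above background, against 47.7% to 62.8% on the others, and replicates correlated least in the clone with RA (0.9625, against 0.983 to 0.9872). Sympathoadrenal markers such as Hand2 and Chgb were above background on all arrays, 13 or 14 of 14 per array. The extraction protocol names hippocampus, and of 10 hippocampal neuron markers 3 to 6 per array were above background, while Prox1, Neurod6, Neurod2 and Calb1 were on 0 of 8 arrays. Slide row went with RA within each line and with the line within each treatment, so row and these differences cannot be told apart. Parental arrays lay in slide columns 1 and 3 and clone arrays in columns 2 and 4. Slide column therefore cannot be told apart from the line in any comparison between the lines. The test of the difference between the RA differences of the lines sets row 2 against row 1 entirely, so for each gene below it cannot be told apart from slide row either. In bulk RNA, fewer cells of a type and less RNA per cell cannot be told apart either.

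Stmn2, the palmitoylated stathmin of growth cones, differed most between the lines among the 8 genes. Its level was 6.24 and 6.28 in the clone with RA and 5.47 and 5.59 in the untreated clone, against -0.40 and -1.30 in the parental line with RA and 1.74 and 1.58 in the untreated parental line. None of the 4 groups overlapped, and the order of the levels was clone with RA, untreated clone, untreated parental line, parental line with RA. With RA the clone exceeded the parental line 138-fold, or by 7.11 ± 0.35 in log2 (± is the standard error throughout; n = 2 arrays in each group; limma adjusted p = 7.88e-05, 95% interval 6.29 to 7.93). Without RA the difference was 3.88 ± 0.35 (14.7-fold, adjusted p = 0.000926). Both calls held without any 1 array, with differences of 6.66 to 7.56 with RA and 3.79 to 3.96 without.

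Stmn2 also fell with RA in the parental line, by 2.51 ± 0.35 on the log2 scale (5.69-fold, n = 2 arrays per group, limma adjusted p = 0.0276). In the clone its RA difference was 0.73 ± 0.35 (adjusted p = 0.281), with an interval from -0.09 to 1.54 and with both RA arrays above both untreated arrays. The test of the difference between the RA differences gave 3.23 ± 0.49 (adjusted p = 0.0665), which missed the threshold of 0.05. It passed under the stricter filter that keeps probes detected on all 8 arrays (adjusted p = 0.0188), under a trended, robust variance (0.00736), with quantile normalization (0.0488) and without clone RA replicate 2 (0.032), and ran up to 0.279 over the alternatives. The fall in the parental line missed the threshold without either parental RA array (0.0884 and 0.0916), either untreated clone array (0.091 each) or either untreated parental array (0.211 and 0.149). It also missed with normexp background correction (0.0538), with no filter on dim probes (0.106) and with only the groups compared (0.0642), and over the alternatives its adjusted p ran from 0.00226 to 0.211.

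**Figure D1:**
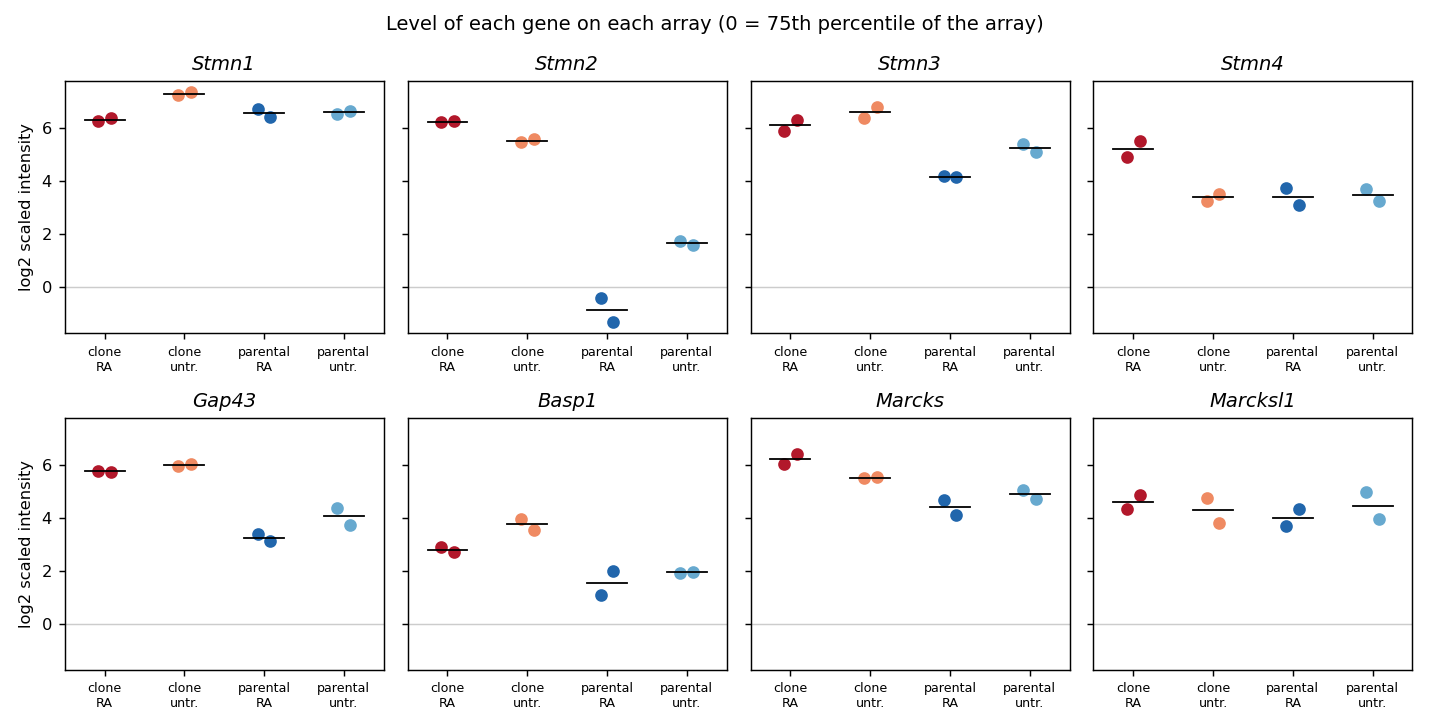
Log2 scaled intensity (vertical axis, 0 is the 75th percentile of the array) of the 8 genes in the 4 groups. Points are arrays and lines are means of 2 arrays. The Stmn2 points of the clone lie at 5.47 to 6.28 and those of the parental line at -1.30 to 1.74, whereas the Marcksl1 points of neighbouring groups overlap.

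Stmn3 encodes SCLIP, another palmitoylated neuronal stathmin. Its level was 5.92 and 6.33 in the clone with RA and 6.41 and 6.80 in the untreated clone, against 4.19 and 4.17 in the parental line with RA and 5.42 and 5.10 in the untreated parental line. All 4 clone arrays lay above all 4 parental arrays, and neighbouring groups did not overlap. Stmn3 was 3.85-fold higher in the clone with RA (log2 1.95 ± 0.30, n = 2 arrays per group, limma adjusted p = 0.00475) and 2.54-fold higher without RA (1.34 ± 0.30, adjusted p = 0.0346). The untreated call ended without either untreated clone array (adjusted p = 0.106 and 0.228), either untreated parental array (0.113 and 0.184) or either parental RA array (0.0543 each) and with no filter on dim probes (0.0998), while the call with RA held without any 1 array. RA against no RA gave -0.48 ± 0.30 in the clone (adjusted p = 0.41), which was 0.01 under quantile normalization, and -1.08 ± 0.30 in the parental line (adjusted p = 0.155).

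Stmn4 encodes RB3, the third membrane-bound neuronal stathmin, and was high in the clone with RA among the 4 groups. Its brighter probe read 4.94 and 5.51 there and 3.28 and 3.52 in the untreated clone, against 3.76 and 3.09 in the parental line with RA and 3.71 and 3.25 in the untreated parental line. Both clone RA arrays lay above the other 6 arrays, and the other 3 groups overlapped. With RA Stmn4 was 3.55-fold higher than without RA in the clone (log2 1.83 ± 0.37, n = 2 arrays per group, limma adjusted p = 0.0422) and 3.48-fold higher than in the parental line with RA (1.80 ± 0.37, adjusted p = 0.0141). In the parental line the RA difference was -0.05 ± 0.37 (adjusted p = 0.974), or 0.03 with normexp background correction, with an interval from -0.92 to 0.81. The test of the difference between the RA differences gave 1.88 ± 0.52 (adjusted p = 0.181), so an RA difference particular to the clone was not shown. The other Stmn4 probe read 4.99 and 5.42 in the clone with RA and 3.14 and 3.53 in the untreated clone. In a fit over all probes its RA difference in the clone was 1.87 ± 0.36 (adjusted p = 0.0479), and that of the brighter probe was 1.83 ± 0.38 (adjusted p = 0.0566). The RA call in the clone ended without any 1 of the 8 arrays (adjusted p = 0.0511 to 0.218), with normexp (0.0551), with no filter (0.123), with a block for the side of the slide (0.0558) and with only the groups compared (0.11). The call between the lines ended without parental RA replicate 2 (0.0685) and with only the groups compared (0.0688).

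Stmn1, the cytosolic stathmin, passed no test in the simple comparisons. Its brighter probe read 6.27 and 6.38 in the clone with RA and 7.26 and 7.36 in the untreated clone, against 6.74 and 6.44 in the parental line with RA and 6.56 and 6.66 in the untreated parental line. Both untreated clone arrays lay above the other 6 arrays. The clone RA arrays lay below the untreated clone arrays, at a difference of -0.98 ± 0.26 (n = 2 arrays per group, limma adjusted p = 0.0852, interval -1.60 to -0.37), and the other probe gave -1.07 ± 0.35. That difference passed under the stricter filter (0.0468) and under the trended, robust variance (0.0462), and under no other alternative. Over the alternatives other than leaving out an array it ran from -1.03 to -0.54. Between the lines without RA the clone was higher by 0.70 ± 0.26 (adjusted p = 0.16). The difference between the lines with RA was -0.26 ± 0.26 (adjusted p = 0.503), or 0.04 under quantile normalization. In the parental line the RA difference was -0.02 ± 0.26 (adjusted p = 0.985), or 0.24 under quantile normalization and 0.02 with normexp.

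Genes of proliferation, listed because Stmn1 is known from dividing cells, had 5 of 12 members lower and 0 higher in the RA-treated clone than in the untreated clone, with a median of -1.4 against 0.02 over all genes. Among them the mitotic kinase gene Plk1 fell by 1.69 ± 0.26 (limma adjusted p = 0.0232), the ribonucleotide reductase gene Rrm2 by 1.39 ± 0.25 (0.0335) and the mitotic kinase gene Aurka by 1.63 ± 0.30 (0.0343). Of the same 12 genes, 9 were lower and 0 higher when the RA-treated clone was set against the RA-treated parental line, such as the topoisomerase gene Top2a at -2.42 ± 0.29. The shares over all genes were 2.05% lower and 2.58% higher for RA in the clone, and 10.2% lower and 12.9% higher between the lines with RA. None of the 12 passed between the untreated lines, where 9.84% of all genes did, or with RA in the parental line, where 1.13% did. With RA in the clone 0 of the 12 passed without clone untreated replicate 1 or 2, with no filter or with only the groups compared, and the calls of Plk1, Rrm2 and Aurka also ended without clone RA replicate 1 or either untreated parental array (adjusted p up to 0.184, 0.216 and 0.236). Between the lines with RA, 6 to 9 were lower without 1 array. Their part in the Stmn1 values was not tested.

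Gap43, the growth cone protein that binds calmodulin, was higher in the clone with and without RA. Its level was 5.80 and 5.75 in the clone with RA and 5.97 and 6.05 in the untreated clone, against 3.39 and 3.13 in the parental line with RA and 4.39 and 3.73 in the untreated parental line. Every clone array lay above every parental array, and the groups did not overlap. Gap43 was 5.71-fold higher in the clone with RA (log2 2.51 ± 0.31, n = 2 arrays per group, limma adjusted p = 0.00198) and 3.86-fold higher without RA (1.95 ± 0.31, adjusted p = 0.0097). The call with RA held without any 1 array (adjusted p up to 0.0194 over the alternatives). The untreated call ended without clone untreated replicate 1 (0.0679) or 2 (0.0868) or parental untreated replicate 2 (0.0661). RA against no RA gave -0.23 ± 0.31 in the clone (adjusted p = 0.703), or 0.23 under quantile normalization, and -0.80 ± 0.31 in the parental line (adjusted p = 0.3).

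Basp1 encodes a myristoylated protein of nerve endings. Its level was 2.90 and 2.72 in the clone with RA and 3.97 and 3.55 in the untreated clone, against 1.10 and 2.00 in the parental line with RA and 1.94 and 1.98 in the untreated parental line. All clone arrays lay above all parental arrays, while the 2 parental groups overlapped. Basp1 was 3.49-fold higher in the untreated clone (log2 1.80 ± 0.36, n = 2 arrays per group, limma adjusted p = 0.0241) and 2.39-fold higher in the clone with RA (1.26 ± 0.36, adjusted p = 0.0465). The untreated call ended without clone untreated replicate 1 (0.153) or 2 (0.0996) or parental untreated replicate 1 (0.129) or 2 (0.115), and with no filter (0.0719). The call with RA ended when any array other than parental RA replicate 2 was left out (0.0676 to 0.153), where the difference without parental RA replicate 1 was 0.81, and with normexp (0.0729), no filter (0.108), the side block (0.0598) or only the groups compared (0.146). RA against no RA gave -0.95 ± 0.36 in the clone (adjusted p = 0.191) and -0.41 ± 0.36 in the parental line (adjusted p = 0.704).

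Marcks, the gene of the main myristoylated protein kinase C substrate, read 6.06 and 6.43 in the clone with RA and 5.52 and 5.54 in the untreated clone. In the parental line it read 4.70 and 4.10 with RA and 5.07 and 4.71 without. Neighbouring groups did not overlap, in the order clone with RA, untreated clone, untreated parental line, parental line with RA, which was also the order of Stmn2. With RA the clone exceeded the parental line 3.59-fold (log2 1.85 ± 0.32, n = 2 arrays per group, limma adjusted p = 0.00774), and without RA the difference was 0.64 ± 0.32 (adjusted p = 0.29). RA against no RA gave 0.72 ± 0.32 in the clone (adjusted p = 0.256) and -0.49 ± 0.32 in the parental line (adjusted p = 0.582), and the test of the difference between them gave 1.21 ± 0.46 (adjusted p = 0.306). The call with RA held without any 1 array and ended with only the groups compared (0.054).

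Marcksl1, the paralogue of Marcks, passed no test. Its level was 4.36 and 4.88 in the clone with RA and 4.76 and 3.83 in the untreated clone, against 3.68 and 4.34 in the parental line with RA and 4.99 and 3.96 in the untreated parental line. Neighbouring groups overlapped in the order of the levels, although both clone RA arrays lay above both parental RA arrays. The clone minus parental difference was 0.60 ± 0.50 with RA (n = 2 arrays per group, limma adjusted p = 0.423, interval -0.58 to 1.78) and -0.18 ± 0.50 without (adjusted p = 0.873, interval -1.36 to 1.00).

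**Figure D2:**
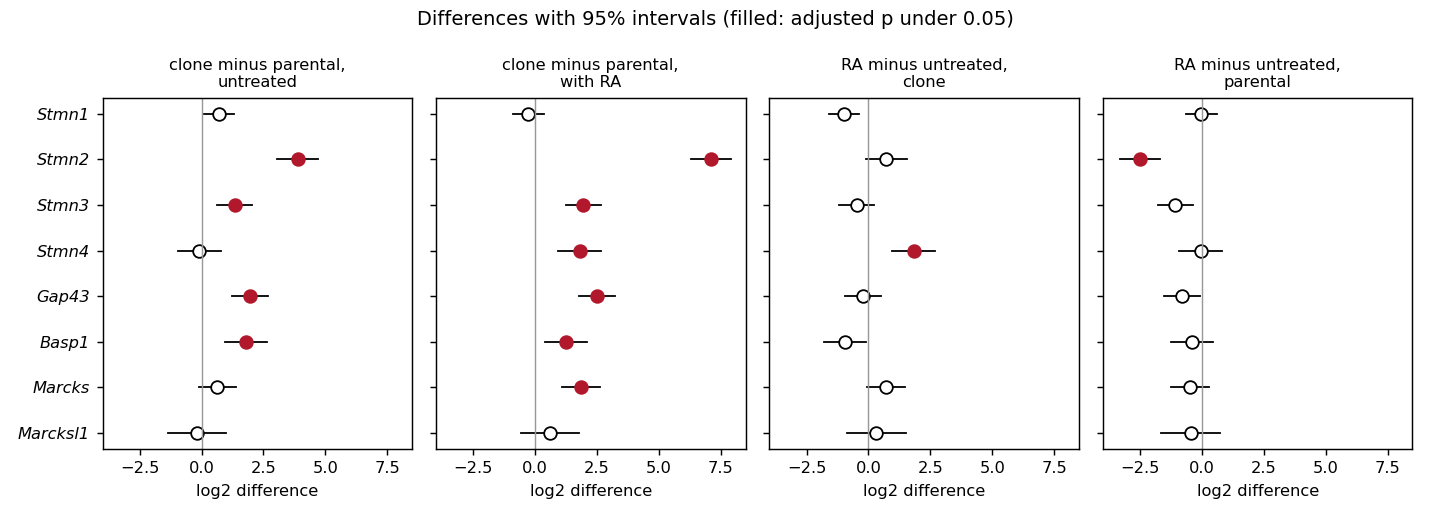
Log2 differences (horizontal axes) of the 8 genes in 4 comparisons, with 95% intervals from the fit over all genes. Filled points passed an adjusted p of 0.05: 4 genes between the untreated lines, 6 between the lines with RA, Stmn4 with RA in the clone and Stmn2 with RA in the parental line.

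The 8 genes were chosen with earlier results of these data known, so the counts below describe them and do not test them against all genes. Counted over the 8 genes, 6 were higher and 0 lower in the clone than in the parental line with RA, where 12.9% of all 26247 genes tested were called higher and 10.2% lower (23.2% in all). Without RA, 4 were higher and 0 lower, where 6.14% of all genes were called higher and 3.7% lower (9.84% in all). The median difference of the 8 was 1.82 with RA, against 0.11 over all genes, and 1.02 without RA, against 0.114. Leaving out 1 array gave 5 genes called with RA in every case and 1 to 4 genes without RA. Without RA only 1 gene, Stmn2, was called when clone untreated replicate 1 or 2 or parental untreated replicate 2 was left out. Averaged over RA and no RA, 6 of 8 genes were higher in the clone, where 16.1% of all genes were higher and 11.6% lower (27.7% in all). Slide row cancels in this contrast, but slide column goes with the line and cannot be told apart from it. The largest average was that of Stmn2 at 5.49 ± 0.25 (45-fold, limma adjusted p = 2.42e-05), followed by Gap43 at 2.23 ± 0.22, Stmn3 at 1.64 ± 0.21, Basp1 at 1.53 ± 0.26 and Marcks at 1.24 ± 0.23. Stmn4 at 0.86 ± 0.26 passed with an adjusted p of 0.0477, which ran from 0.0139 to 0.145 over the alternatives, and ended without clone untreated replicate 1 (0.103) or 2 (0.145), parental RA replicate 2 (0.114), parental untreated replicate 1 (0.076) or 2 (0.139) or clone RA replicate 2 (0.0871).

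With RA, 1 of 8 genes was higher and 0 lower in the clone, where 2.58% of all genes were called higher and 2.05% lower (4.63% in all), and 0 were higher and 1 lower in the parental line, where 0.541% were higher and 0.591% lower (1.13% in all). Each count was 0 when some arrays were left out, namely any 1 array for the clone and any but a clone RA array for the parental line. The 8 differences had a median of 0.04 for the clone and of -0.48 for the parental line, against 0.02 over all genes in each line. All 8 differences lay below 0 in the parental line and 4 of 8 in the clone, and 1 of the 8 parental ones passed the test. With RA averaged over the lines, 0 of 8 passed by limma, where 5.83% of all genes passed, 3.13% as higher and 2.7% as lower. An unadjusted p under 0.05 was found for 6 of 8, against 22.7% of all genes. Under the stricter filter and under the trended, robust variance, 1 of the 8 passed as higher, Stmn4, and 2 as lower, Stmn2 and Stmn3. With quantile normalization 1 passed as higher, Stmn4, and under no other alternative did any pass. The lowest limma adjusted p was 0.0265 for Stmn2, 0.0332 for Stmn3 and 0.0329 for Stmn4. Slide row and slide column both cancel in this average. For the difference between the RA differences 0 of 8 passed by limma at an adjusted p under 0.05, where 0.206% of all genes did, 0.122% as higher and 0.0838% as lower. An unadjusted p under 0.05 was found for 4 of 8, against 13.9% of all genes. Those 4 were Stmn1 (-0.96), Stmn2 (3.23), Stmn4 (1.88) and Marcks (1.21). The arrays of the groups did not overlap for 8 of 8 genes between the lines with RA, as for 58.7% of all genes, and for 6 between the untreated lines, as for 60.1%. With RA against no RA they did not overlap for 7 genes in the clone, as for 52.8% of all genes, and for 4 in the parental line, as for 44.2%.

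**Figure D3:**
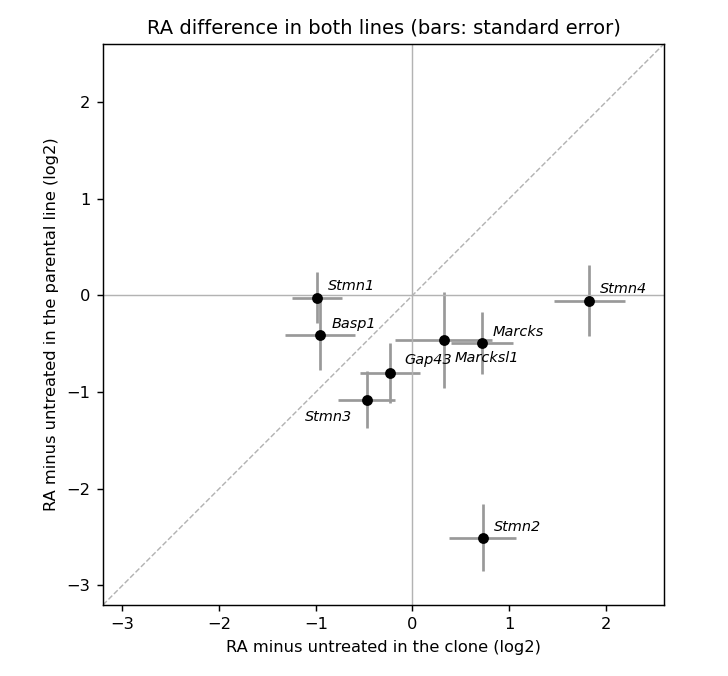
RA minus untreated log2 difference in the clone (horizontal axis) against that in the parental line (vertical axis) for the 8 genes, with standard errors and the dashed line of equal differences. Stmn2 lies at 0.73 and -2.51 and Stmn4 at 1.83 and -0.05, and the Stmn1 and Stmn4 values in the parental line change sign with the scaling or background correction.

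Genes of the same structures moved between the lines as well. Of 24 listed growth cone cytoskeleton and adhesion partners 22 were tested. This list was chosen with earlier results of these data known, as were the members. With RA, 15 were higher in the clone than in the parental line and 0 were lower, with a median of 1.68 against 0.11 over all genes, of which 12.9% were higher. Dclk1, a doublecortin-like microtubule-associated kinase, was higher by 4.26 ± 0.32 (limma adjusted p = 0.00031), the actin-binding drebrin gene Dbn1 by 3.06 ± 0.30 (0.000809) and Dpysl3, a collapsin response mediator, by 2.61 ± 0.28 (0.00114). Without RA, 4 were higher and 0 lower, with a median of 0.74 against 0.114 and 6.14% higher over all genes, with Dclk1 at 3.1 ± 0.32, Gprin1, a G protein-regulated inducer of neurite outgrowth, at 1.80 ± 0.28 and the microtubule-associated protein gene Map1b at 1.33 ± 0.30 among them. With RA in the clone 0 of 22 passed, where 4.63% of all genes did. In the parental line 1 fell, where 0.591% of all genes were lower, Dpysl3 by 1.73 ± 0.28 (adjusted p = 0.045). That fall ended without any 1 parental or untreated clone array (adjusted p up to 0.295), with normexp, with no filter, with a block for the side of the slide and with only the groups compared. Without 1 array, 9 to 13 partners were higher with RA and 1 to 4 without RA. Dclk1 held in each case, whereas without RA Gprin1 ended without either untreated clone array or parental untreated replicate 1 (up to 0.0719) and Map1b without any 1 untreated array (up to 0.217). The probes of Map1b disagreed, and their mean gave a difference of 0.07 without RA (adjusted p = 0.975).

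**Figure D4:**
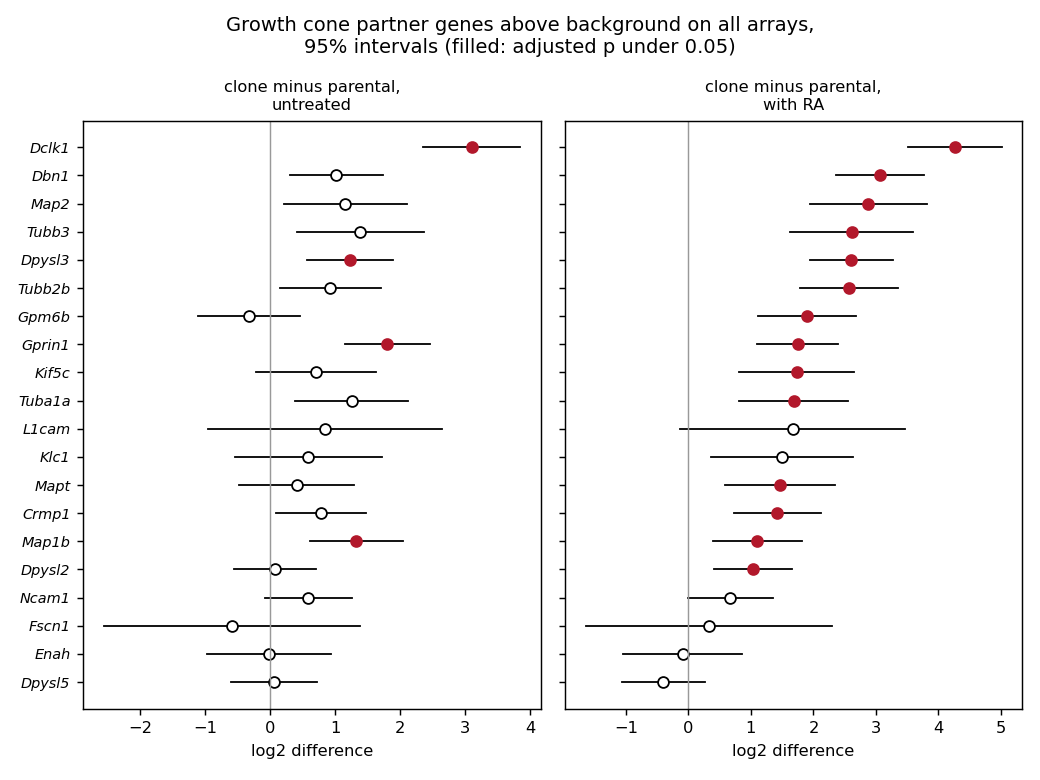
Clone minus parental log2 differences (horizontal axes) of the 20 growth cone partner genes above background on all 8 arrays, untreated on the left and with RA on the right, with 95% intervals. Filled points passed an adjusted p of 0.05, 4 on the left and 14 on the right, with Dclk1 at 3.1 and 4.26.

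Regulators that phosphorylate or bind these proteins gave mixed results. Of 25 kinase and phosphatase genes tested, 9 were higher and 4 lower between the RA-treated clone and the RA-treated parental line, where 12.9% of all genes were higher and 10.2% lower, including the JNK3 gene Mapk10 at 3.34 ± 0.30 (limma adjusted p = 0.000615), the protein kinase C alpha gene Prkca at 3.22 ± 0.37 (0.00157) and the kinase gene Camk4 at 2.36 ± 0.30 (0.00216). Without RA 6 were higher and 0 lower, where 6.14% of all genes were higher and 3.7% lower, led by Mapk13 at 2.14 ± 0.34 (0.0101). With RA in the parental line 0 of 25 passed, where 1.13% of all genes did. In the clone 2 fell, the protein kinase C delta gene Prkcd by 1.70 ± 0.31 and Cdk1 by 1.40 ± 0.27, where 2.05% of all genes were lower. Both falls ended without either untreated array of either line or clone RA replicate 1, and Cdk1 also without clone RA replicate 2 (adjusted p up to 0.231 for Prkcd and 0.238 for Cdk1), and with normexp, no filter or only the groups compared. The call of Mapk13 without RA ended without clone untreated replicate 2 or either untreated parental array (up to 0.0803), and 0 to 6 of the list were higher without RA when 1 array was left out.

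Of 5 genes tested for calmodulin and small IQ motif proteins, 2 were higher and 0 lower in the clone with RA, and the same counts held without RA. Over all genes 12.9% were higher with RA and 6.14% without. Averaged over RA and no RA, 3 of the 5 were higher and 1 lower, where 16.1% of all genes were higher and 11.6% lower. The largest differences were those of Pcp4, which encodes a small calmodulin-binding peptide with an IQ motif. Pcp4 read 6.21 and 6.33 in the clone with RA and 6.66 and 6.88 in the untreated clone, against -3.28 and -3.33 in the parental line with RA and 1.21 and 1.64 in the untreated parental line. Its differences were 9.57 ± 0.28 with RA and 5.35 ± 0.28 without (n = 2 arrays per group, limma adjusted p = 3.93e-05 and 0.000185). It fell by 4.73 ± 0.28 with RA in the parental line, and the test of the difference between the RA differences gave 4.22 ± 0.39 (adjusted p = 0.0202). The differences between the lines held without any 1 array. The fall in the parental line ended without any 1 parental array (adjusted p up to 0.0776), and the test of the difference between the RA differences, which goes with slide row, ended with normexp, with no filter and without any 1 parental or untreated clone array (up to 0.184).

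Among mRNA-binding and transcriptional regulators, 4 of 11 were higher and 1 lower when the RA-treated clone was set against the RA-treated parental line. Of all genes 12.9% were higher and 10.2% lower there. The calls of Elavl2, which was higher, and of E2f1, the lower one, each ended when any 1 array was left out. Elavl4 (HuD), which binds and stabilises the Gap43 transcript, was higher by 2.38 ± 0.29 (limma adjusted p = 0.00201) and without RA by 1.25 ± 0.29 (0.0423), and its relative Elavl3 by 1.54 ± 0.31 and 1.37 ± 0.31. Of 12 lipid transferases and thioesterases, 1 was higher and 3 lower with RA, such as the palmitoyl transferase gene Zdhhc8 at 2.03 ± 0.35 and the myristoyl transferase gene Nmt2 at -1.16 ± 0.27, and 0 were higher and 1 lower without RA, Ppt1 at -1.45 ± 0.28. Of 16 phosphoinositide and actin regulators, 2 were higher and 2 lower with RA, such as the phospholipase D gene Pld1 at 2.95 ± 0.33 and the GTPase gene Rac1 at -1.81 ± 0.31, and 0 passed without RA. Neither the regulators nor the lipid enzymes had a member past the test with RA in either line, while Pld1 fell by 2.47 ± 0.33 in the parental line. That fall ended without any 1 parental or untreated clone array, with normexp and with no filter (adjusted p up to 0.188). Over all genes 23.2% passed between the lines with RA and 9.84% without RA, and the 4 of 16 phosphoinositide and actin regulators and the 1 of 12 lipid enzymes without RA were near these shares. The untreated calls of Elavl3, Elavl4 and Ppt1 ended without any 1 untreated array (up to 0.2, 0.224 and 0.136), those of Elavl3 and Elavl4 also without either parental RA array. With RA, Elavl3 ended without parental RA replicate 2 or clone RA replicate 1 (up to 0.0613), Nmt2 without parental RA replicate 1 or clone RA replicate 1 (up to 0.0891), Rac1 with the mean of probes (0.0573) and Zdhhc8 with normexp and with quantile normalization (up to 0.303).

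Set against the RA-treated parental line, the RA-treated clone had 8 of 14 sympathoadrenal markers higher and 2 lower. Of all genes 12.9% were higher and 10.2% lower there. Between the untreated lines 0 of the 14 were higher and 2 lower, with a median of -0.261 against 0.114 over all genes. In that comparison 6.14% of all genes were higher and 3.7% lower. Summed on the linear scale, these markers reached 500 to 573 in the RA-treated clone and 305 to 308 in the untreated clone. The parental sums were 110 to 162 with RA and 248 to 331 without. Schwann cell and glial markers summed to 0.736 to 0.875 in the clone with RA and 0.715 to 0.757 in the untreated clone, against 0.99 to 1.48 and 1.77 to 1.96 in the parental line with and without RA. Summed fibroblast markers lay at 1.58 to 1.69 and 2.8 to 3.44 in the clone with and without RA, against 1.46 to 1.95 and 1.78 to 2.44 in the parental line with and without RA. Hippocampal neuron markers summed to 4.75 to 5.63 and 13.2 to 13.4 in the clone with and without RA, against 4.73 to 5.94 and 5.7 to 6.07 in the parental line with and without RA. Vessel, blood and microglia markers summed to 4.42 to 8.2 and 8.04 to 9.11 in the clone with and without RA, against 4.64 to 7.96 and 9.33 to 10 in the parental line with and without RA. The part of these 5 lists in the results above was not tested.

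The genes most like each member over the 8 arrays were sought among 12177 other named genes above background on all arrays. For Stmn2 these were Lyl1 (r = 0.9989), Abat (0.9969) and Garnl3 (0.9965), and for Gap43 they were Enpp5 (0.999), Lrrc17 (0.9977) and Prph (0.9959), the gene of the intermediate filament peripherin. Among the members, Stmn2 and Gap43 correlated at 0.977, Stmn3 and Gap43 at 0.964 and Stmn2 and Stmn3 at 0.941, whereas Stmn1 correlated with Stmn2 at 0.212 and with Stmn4 at -0.532. These correlations describe 8 arrays of 2 lines on 1 slide, which share these sources of variation.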

How the data were processed

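Gene expression was measured on 8 one-colour Cy3 arrays, 2 in each of 4 groups, on 1 slide with 1 scan time. Per the file headers, Feature Extraction 10.7.3.1 subtracted the background from each deposited intensity and corrected spatial trends, without scaling arrays to each other. The authors' deposited table holds log2 values equal to that intensity on the log2 scale less a constant for the array (departure at most 1.95e-06 for probes with 1 spot); these lay 0.154 to 0.261 above the scaling used here, and how the constant was set is not given in the sources used here. The array files name genome build mm9.

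Log2 intensity was taken minus the 75th percentile over non-control spots, outlier spots were dropped, and each probe took the mean of its spots. The filter kept 36619 of 55681 probes, those well above background on 2 or more arrays. The brightest probe represented each gene, giving 26247 features, called genes here, of which 15169 had a symbol through RefSeq accessions. limma 3.58.1 (R 4.3.3) fitted the 4 group means over the 8 arrays (4 residual and 2.999 prior degrees of freedom), with Benjamini-Hochberg adjustment over all genes and calls at an adjusted p under 0.05; the fit was tested on simulated data. The members and lists were chosen with earlier results of these data known. Named are all members, up to 3 called genes with the smallest adjusted p per list, and the 3 genes most like a member. Alternatives were normexp background correction on the median signal (the tables hold no mean signal), quantile normalization, the series table, no filter, a stricter filter, the mean of probes, a variance that was trended and robust, a fit of only the groups compared, a block for the side of the slide, outlier spots kept, and leaving out each array. The number of arrays limits the precision.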

Additional observations from a re-analysis of the deposited data

Results flagged for a closer look

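Stmn1 lay higher in the clone than in the parental line without RA, by 0.70, and lower with RA, at a difference of -0.26, for its brighter probe, whose arrays did not overlap in either comparison. The other Stmn1 probe overlapped between the lines with RA. The test of the difference between these differences, for the brighter probe, gave an adjusted p of 0.312 by limma. Stmn2 had an RA difference of 0.73 for the clone and one of -2.51 for the parental line, with arrays that did not overlap in either, and the test of the difference gave an adjusted p of 0.0665. Marcks had an RA difference of 0.72 for the clone and one of -0.49 for the parental line, again without overlap, and the test of the difference gave an adjusted p of 0.306. All 3 tests go with slide row and cannot be told apart from it.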

How the results depend on the processing

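No paired analysis was possible because the labels give the groups no shared replicate numbers, so the side of the slide, which holds each group once, was used as a block. That block does not separate the line from slide column. Counts of called genes moved by more than 1.5 times from the reported ones as follows. For the untreated lines (2582) they were 1213 with normexp and 1386 with no filter, and 786 to 3174 when 1 array was left out. For the lines with RA (6084) they were 3650, 3703 and, with only the groups compared, 2639, and 3823 to 7276 without 1 array. For RA in the clone (1216) they were 440 with normexp, 0 with no filter and with only the groups compared by limma (5047 and 5361 at an unadjusted p under 0.05), 1895 under the stricter filter (probes detected on all 8 arrays) and 2172 under the trended, robust variance, and 0 to 3032 without 1 array. For RA in the parental line (297) they were 55, 17, 635 and 803 with normexp, no filter, the stricter filter and the trended variance, and 0 to 655 without 1 array. For the difference between the RA differences (54) they were 0 with normexp and with no filter by limma (2449 and 3178 unadjusted), 310 with the stricter filter, 454 with the trended variance and 21 with the side block, and 0 to 1002 without 1 array. For the average clone difference (7276) normexp gave 4457, and 4480 to 9062 were called without 1 array. For the average RA difference (1531) normexp gave 472, no filter 120 and the trended variance 2435, and 0 to 3205 without 1 array.

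Signs turned for values that had passed no test. Quantile normalization gave 0.0366 for Stmn1 between the lines with RA, 0.24 for Stmn1 with RA in the parental line, 0.18 for the average RA difference of Marcksl1, and 0.23 for Gap43 and 0.0064 for Stmn3 with RA in the clone. Normexp gave 0.0173 for Stmn1 and 0.0256 for Stmn4 with RA in the parental line. Without 1 array, Marcksl1 ran from -0.70 to 0.34 between the untreated lines, from -0.14 to 0.79 with RA in the clone, from -0.98 to 0.0575 with RA in the parental line, from -0.0469 to 0.47 in the average clone difference and from -0.33 to 0.19 in the average RA difference. Stmn4 ran from -0.31 to 0.15 between the untreated lines and from -0.39 to 0.28 with RA in the parental line, Stmn1 from -0.17 to 0.13 and Basp1 from -0.86 to 0.0393 with RA in the parental line, and Marcks from -0.0362 to 0.26 in the average RA difference. The cause was not tested. The median over all genes moved to -0.146 between the lines with RA under quantile normalization and to -0.192 between the untreated lines under normexp.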
